A study of Caenorhabditis elegans with 2 samples.

Results

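Weak candidate regions for SWSN-7 whose summits fell in the coding exons of genes were described in Caenorhabditis elegans L1 larvae. There were 2392 such regions, hereafter members, among 26121 merged candidate regions in all and among 22146 weaker candidates, so they made up 10.8% of the weaker candidates. A weaker candidate was an entry of the pooled candidate list, merged with any entry it touched, that touched none of the 4087 entries passing the authors' irreproducible discovery rate (IDR) threshold, a filter meant to keep regions that rank consistently between replicates. Members were then chosen by their summit, which had to lie in a coding exon and outside the promoter window of every protein-coding 5′ end (1000 bp on its upstream side, 500 bp on its downstream side). The IDR entries merged into 3976 regions, of which 14 met the same positional rule. Of the 3976, 3966 overlapped an entry of both replicates' own candidate lists.

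The assay was ChIP-seq, chromatin immunoprecipitation followed by sequencing, which recovers DNA bound by a protein with an antibody and counts where in the genome the recovered fragments lie. The series held 1 group of 2 biological replicates of whole hermaphrodites, collected at the L1 stage 6 hours after synchronization by starvation following bleaching. All animals were of strain OP512, genotype unc-119(tm4063) III; wgIs512, which stably expresses SWSN-7 with GFP and FLAG fused to its C-terminal end, and the antibody was against GFP. Both replicates therefore share the unc-119 mutation and the transgene, whole larvae mix all tissues, and no untagged animals or control chromatin were analysed here. The number of reads per replicate is unknown, since the lists hold no read counts but only the peak caller's signal value, which tells how enriched an entry was and can be compared only with other entries of its list.

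SWSN-7 belongs to PBAF, a class of SWI/SNF complexes. These use ATP to slide or evict nucleosomes and so open DNA at promoters and enhancers. Coding exons are not where such complexes are best known to act. ChIP-seq lists that are made for IDR are deliberately permissive, so they hold background as well as weak binding. Intervals below are 95% exact intervals (Clopper-Pearson for shares, Poisson for densities) which cover only the counting error over regions or genes. The values of each replicate's own list give the spread between libraries.

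The 3 members with the highest signal values, and the strongest member of let-805, the gene with the most members, are shown so that the kind of sequence under a summit can be seen. Each run is 200 bases of RefSeq's WBcel235 (ce11) centred on the summit, read 5′ to 3′ on the strand of the host gene, and capitals mark bases of a coding exon.
T05G5.1, chrIII:9742168-9742367, minus strand: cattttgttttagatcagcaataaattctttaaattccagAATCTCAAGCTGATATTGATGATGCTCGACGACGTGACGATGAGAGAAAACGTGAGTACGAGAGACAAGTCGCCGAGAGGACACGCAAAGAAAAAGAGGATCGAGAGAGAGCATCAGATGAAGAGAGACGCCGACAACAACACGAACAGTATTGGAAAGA
Y57G11C.5, chrIV:14764446-14764645, minus strand: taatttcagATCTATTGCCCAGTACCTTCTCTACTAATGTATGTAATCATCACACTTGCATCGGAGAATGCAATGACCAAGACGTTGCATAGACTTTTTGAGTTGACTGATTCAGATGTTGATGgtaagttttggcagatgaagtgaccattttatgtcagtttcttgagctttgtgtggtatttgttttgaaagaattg
F11D5.1, chrX:3339989-3340188, plus strand: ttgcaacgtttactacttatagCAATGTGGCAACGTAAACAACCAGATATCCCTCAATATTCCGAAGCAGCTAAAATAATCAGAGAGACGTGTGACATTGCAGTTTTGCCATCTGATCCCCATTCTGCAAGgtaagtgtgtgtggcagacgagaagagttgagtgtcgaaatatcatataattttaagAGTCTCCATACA
let-805, chrIII:2663194-2663393, plus strand: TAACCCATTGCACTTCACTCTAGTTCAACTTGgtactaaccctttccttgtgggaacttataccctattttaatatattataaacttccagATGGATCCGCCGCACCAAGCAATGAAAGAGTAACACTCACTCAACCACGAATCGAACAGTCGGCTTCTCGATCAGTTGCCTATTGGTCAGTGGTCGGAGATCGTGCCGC
All 4 windows cross an exon edge and hold both coding and intron bases. The T05G5.1 window, from a gene annotated as prothymosin alpha-like, held the letters GAGAGA 5 times on the gene's strand, overlapping copies included. The F11D5.1 window held them 1 time, and the other 2 windows held none on either strand.

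The members were the weak end of a weak list. Their signal values ran from 14.92 to 84.95 with a median of 20.45, against a median of 24.66 in the 19754 other weaker candidates. These values chose the members and are given as a description. The strongest member had 84.95 and the second 84.07, while the weakest IDR entry had 88.41 and the weakest IDR region in a coding exon 93.32. The authors' −log10 q-value had a median of 0.394 over the members, and 37 of them reached the list's ceiling of 4.086. The share of weaker candidates that were members was 15.7% below a signal value of 18, 13.0% from 20 to 25, and 3.08% at 40 and above. Of the members, 89.7% were exactly 400 bp wide and 97.8% had the summit 200 bp from their start, whereas 41.1% of IDR entries were 400 bp wide.

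Coding sequence held fewer candidates per base than other sequence. Coding exons outside promoter windows covered 16.56 Mb, or 16.5% of the genome, and held 144.5 members per Mb. Over the other classes the weaker candidates numbered 197.2 per Mb in introns, 296.3 in 3′ untranslated regions, 250.4 in promoter windows and 248.8 between genes. Applied to each replicate's own list alone, the rule gave 147.7 members per Mb in replicate 1 and 162.8 in replicate 2. Of the IDR regions, 0.352% lay in these exons. The summit of 46 members also lay in a 3′ untranslated region of another transcript, and the rule kept these.

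Of the 2392 members, 1449 overlapped an entry of replicate 1's own list by at least 1 bp (60.6%, interval 58.6 to 62.5) and 1640 an entry of replicate 2's (68.6%, interval 66.7 to 70.4). Both lists held 900 members (37.6%, interval 35.7 to 39.6), and neither held 203 (8.49%). The other weaker candidates were in both lists in 54.1% of cases and those in introns in 50.5%. The replicate lists hold the same reads as the pooled list, so presence there is not independent evidence of a member.

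Presence followed the signal value closely. Both lists held 6.87% of members below 18, 39.2% of those from 20 to 25, 86.96% of those from 30 to 40, and 131 of the 134 members at 40 and above. In the same bands the other weaker candidates were in both lists in 11.2%, 39.7%, 84.2% and 97.3% of cases. All 28 members above 60 were in both lists. No member was among the strongest 4087 entries of both replicates, and 10 were in that range in replicate 1 and 3 in replicate 2. Of the 19754 other weaker candidates, 11 were in that range in both, or 0.0557%. The rule removed candidates that touch an IDR entry, so low counts here follow largely from it.

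**Figure D1:**
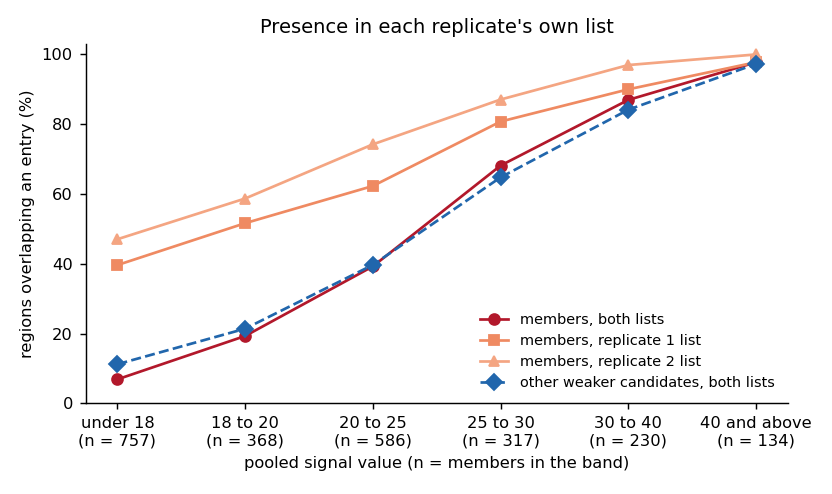
Percentage of members overlapping an entry of both replicate lists, of replicate 1's list and of replicate 2's list (y axis), by band of pooled signal value (x axis, with the number of members), beside the other weaker candidates in both lists (dashed). Presence of members in both lists climbed from 6.87% in the lowest band to 97.8% in the highest, close to the dashed line.

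Where a member was in both lists, the replicates placed it less exactly than they placed IDR regions. The 2 replicate summits of such a member lay a median of 104 bp apart, and 48.9% of the 900 lay within 100 bp of each other. The medians were 77 bp for the other weaker candidates and 14 bp for IDR regions, of which 97.2% were within 100 bp. Each replicate's own members overlapped in 624 regions, which is 25.5% of the 2445 own members of replicate 1 and 23.2% of the 2695 of replicate 2. Any entry of the other replicate's list was overlapped by 37.8% and 36.2% of them. These shares were not computed for the other weaker candidates, so they have no comparison here.

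The members lay in 2019 host genes of the 16698 protein-coding genes with any coding sequence outside promoter windows, which is 12.1% of them, and no member lay in more than 1 gene. Of the hosts, 1726 held 1 member, 238 held 2, 39 held 3 and 16 held 4 or more. Long genes were hosts more often, from 5.2% of genes with under 500 bp of such sequence to 36.3% of those with 4000 bp and more. Per Mb, however, the density went the other way, with 203.8 members in the shortest and 102.5 in the longest of these classes. With the replicates alone, 2102 of the 16698 genes were hosts with replicate 1 and 2242 with replicate 2. The replicates shared 849 hosts, which is 40.4% of those of replicate 1 and 37.9% of those of replicate 2. The sharing to be had from coding length alone was not computed.

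The hosts of the 20 strongest members mixed regulators, enzymes, channels and genes with little annotation. Their pooled values ran from 66.86 to 84.95. All 20 were in both lists, with values of 21.42 to 55.5 in replicate 1 and of 19.76 to 59.1 in replicate 2. The strongest, in T05G5.1, had 84.95 in the pooled list, 39.71 in replicate 1 and 50.63 in replicate 2. Y57G11C.5, annotated with a serpin domain, had 84.07, 33.05 and 54.25 in the same lists. F11D5.1, annotated with a pleckstrin homology domain, had 81.67, 21.42 and 59.1.

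Among the transcription regulators in this set was dpy-22, which encodes Mediator subunit 12, with 79.49 pooled, 28.66 in replicate 1 and 51.15 in replicate 2. Y56A3A.7, annotated as a homeobox cut-like gene, had 78.83, 44.12 and 37.87. The Notch receptor gene lin-12 had 78.71, 30.94 and 36.24, with the summit at 98.6% of its coding sequence. Chaperone genes followed, with hsp-90 at 76.32, 55.5 and 38.08 and the DnaJ gene dnj-19 at 68.25, 25.2 and 35.67. The hsp-90 value in replicate 1 was the highest that any member had in that list. The member in dnj-19 lay on chromosome V close to that in T05C3.2, annotated with a NACHT domain, at 66.86, 48.9 and 20.77.

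The enzymes and transporters in the set were sodh-2, an alcohol dehydrogenase (75.78 pooled), suro-1, a carboxypeptidase (74.5), apy-1, an apyrase (70.16), and lgc-31, a ligand-gated ion channel (75.17). The remaining hosts were C35C5.10, annotated as transmembrane protein 164 (77.15), ZK112.5 (76.58), tag-272 with the C-terminal domain of AGC kinases (75.91), C01G12.7 with a G protein-coupled receptor domain (75.28), Y43F8B.3 with a Kunitz inhibitor domain (71.48), R07A4.3 (67.89) and cal-3, an EF-hand protein gene (67.67). Of the 20 hosts, 7 had an IDR summit in their own promoter window, beside 29.2% of all hosts and 15.5% of all genes with coding sequence outside promoter windows.

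5 genes held 5 members or more, and 4 of them, all but smk-1, had 13150 bp or more of coding sequence outside promoter windows. let-805, which encodes myotactin, a fibronectin-type III protein of the muscle attachment of the epidermis, held 7 members at 19.52 to 30.44, of which 3 were in replicate 1's list, 6 in replicate 2's and 2 in both. unc-22, which encodes the giant muscle kinase twitchin, held 6 at 17.88 to 25.4, with 3 in both lists. vab-10, a spectraplakin gene that links cytoskeleton to attachment structures, held 6 at 15.79 to 25.16, with 2 in both. These 3 genes had 13150, 20920 and 21548 bp of coding sequence outside promoter windows, far above the median of 695 bp. Under the rule applied to 1 replicate alone, let-805 held 4 members in replicate 1 and 7 in replicate 2, and vab-10 held 5 and 10.

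cla-1, which encodes the presynaptic active zone protein clarinet, held 5 members, of which the strongest had 51.98 pooled, 23.12 in replicate 1 and 42.43 in replicate 2. smk-1, a regulatory subunit of protein phosphatase 4, also held 5 in a coding sequence of only 2588 bp, 1.93 per kb, all at 21.7 or less. Another 11 genes held 4 each, and the 5 of them with the highest summed signal values were pqn-87 (up to 46.61), mig-38, a gene of cell migration (up to 45.15), epc-1, an enhancer-of-polycomb-like chromatin gene (up to 34.28), the chromatin remodeller gene chd-7 (up to 30.3) and pqn-41, a polyglutamine-repeat gene (up to 34.33). epc-1 held its 4 members in 2162 bp, with 3 of them in both lists and an IDR signal value of 944.5 at its own promoter.

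Host genes carried an IDR summit in their own promoter window more often than other genes did. Of all 16698 genes with coding sequence outside promoter windows, 15.5% had such a summit, called a bound promoter below. The share was 29.2% among the 2019 hosts (589 genes, interval 27.2 to 31.2) and 13.7% among the other 14679 (interval 13.1 to 14.2). It was 30.5% for the hosts found with replicate 1 alone and 27.5% for those found with replicate 2 alone. The hosts exceeded the other genes in each of the 5 classes of coding length, with 22.04% against 12.3% below 500 bp and 31.4% against 20.4% from 4000 bp. Counted by sequence, coding bases of genes with a bound promoter held 230.2 members per Mb (interval 214.1 to 247.2) and those of other genes 123.3 (interval 117.4 to 129.4). Of the members below a signal value of 18, 26.7% lay in such genes, and of those at 40 and above 44.8%. The rule itself used the IDR list, from which it removed only candidates that touched an IDR entry.

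From 20000 bp down to 500 bp, members were denser the closer coding sequence lay to an IDR region. From 500 to 1000 bp away, coding sequence held 346.6 members per Mb (interval 297.6 to 401.5), from 2000 to 5000 bp it held 202.9, and beyond 20000 bp it held 83.77 (interval 75.41 to 92.81). Replicate 1's own members gave 368.1, 202.9 and 82.63 over these distances and replicate 2's own gave 368.1, 213.9 and 100.7. The other weaker candidates fell over the same steps from 496.3 to 314.3 and 163.9 per Mb of their own kinds of sequence, so the slope was seen in both. Nearer still, from 200 to 500 bp, only 0.094 Mb of coding sequence was left and held 4 members or 42.55 per Mb (interval 11.59 to 109), with 95.74 and 74.47 in the replicates alone and 112.8 for other weaker candidates. The rule removes candidates that touch an IDR entry, which bears most on this nearest bin. Beyond 5000 bp from an IDR region, coding sequence of genes with a bound promoter held 171.4 members per Mb (interval 141.5 to 205.7). That of other genes held 105.5 (interval 99.48 to 111.9). Distance was not matched within this open-ended range. Over all coding sequence, density fell within it from 144.6 at 5000 to 10000 bp to 83.77 beyond 20000 bp. The comparison therefore cannot separate the bound promoter from distance. The part of nearby strong sites in these members was not tested.

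**Figure D2:**
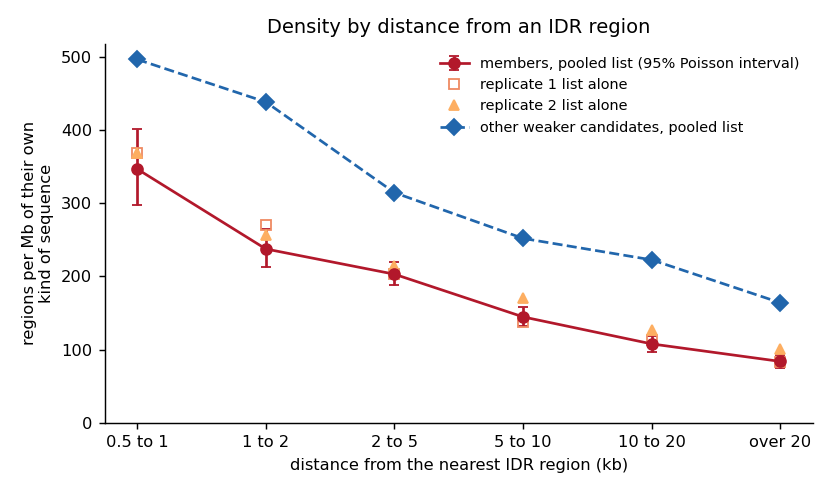
Members per Mb of coding sequence (circles, with 95% Poisson intervals; replicate lists alone as open squares and triangles) and other weaker candidates per Mb of all other sequence (diamonds), by distance from the nearest IDR region in kb. The bin from 0.2 to 0.5 kb, with 0.094 Mb of coding sequence, is not drawn. Over the distances drawn, both densities were highest from 0.5 to 1 kb, at 346.6 for members, and lowest beyond 20 kb, at 83.77.

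Among gene groups of at least 10 kb, members were dense in genes for chaperones, neuropeptides and SWI/SNF subunits. They were sparse in genes for chemoreceptors, C-type lectins and F-box proteins. Beside the 144.5 members per Mb over all genes, the 53 chaperone genes with coding sequence outside promoter windows had 511.6 (interval 331.1 to 755.3) and 19 hosts, which is 35.8% of them. Replicate 1 alone gave 450.2 there and replicate 2 alone 552.6. Their strongest hosts were hsp-90 and dnj-19, named above. Of the 53 genes 26 had a bound promoter, and their coding bases lay a median of 2657.5 bp from an IDR region, against 9476 bp for all coding sequence. Neuropeptide genes had 496.2 members per Mb from only 7 members in 14.11 kb (interval 199.5 to 1022.4), led by nlp-21 at 28.04 pooled, 16.62 in replicate 1 and 23.69 in replicate 2, and by flp-6 at 27.58, 16.75 and 12.48. Hosts were 7 of the 82 neuropeptide genes with such sequence, or 8.54%, which is below the 12.1% of all genes. All genes with under 500 bp of such sequence had 203.8 members per Mb.

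Cuticle collagen genes, which encode the main proteins of the worm's exoskeleton, had 292.2 members per Mb (interval 192.6 to 425.2) and 27 hosts of 164, led by col-81 at 29.35 and col-133 at 25.48. Their coding sequence had a median GC content of 56.2%, against 40% over all coding sequence. Cytosolic ribosomal protein genes had 2 hosts, rpl-3 at 38.39 and rps-2 at 19.63, in only 6.143 kb, since most of their short coding sequence lies in a promoter window. Their density was 325.6 per Mb (interval 39.43 to 1176.1). Each replicate alone gave 5 members there, or 813.9 per Mb. Translation factor genes had 249.1 per Mb (interval 91.4 to 542.1), led by ifet-1 and eef-2.

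Among structural and muscle genes, 18 of 43 sarcomere and attachment genes were hosts, led by the troponin gene unc-27 at 32.25 and by unc-22, and their density of 180.4 per Mb had an interval of 124.9 to 252 that includes the value over all genes. The same held for cytoskeletal linkers and motors, with 156 per Mb and 24 hosts of 62, led by the intermediate filament gene ifb-2 at 31.26 and by let-805. It also held for basement membrane genes, with 136.1 per Mb and 9 hosts of 23, led by ost-1, which encodes SPARC, at 55.71 and unc-52, which encodes perlecan, at 28.87.

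Among regulators, nuclear hormone receptor genes had 171.3 per Mb, led by nhr-107 at 65.38 and nhr-19 at 61.62, homeobox genes 181.9, led by ceh-88 and zfh-2, and chromatin regulators 150.3, led by dpy-27, a condensin subunit of dosage compensation, at 37.68 and cbp-1, a histone acetyltransferase, at 36.71. Fatty acid and lipid metabolism genes had 232.4 per Mb (interval 142 to 359), led by elo-5 and acs-19, and protease genes 204 (interval 120.9 to 322.3), led by asp-4 and cpr-1. Ion channel and receptor genes had 130.5 per Mb and 48 hosts of 269, led by lgc-31 and the innexin inx-12.

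In 7 groups of at least 10 kb the whole interval lay below the value over all genes. These intervals treat members as independent, though 21.9% of members had another member within 2000 bp. They were not adjusted for the 25 groups, so an upper end close to 144.5 does not set a group apart. Chemoreceptor genes had 71.32 members per Mb (interval 53.1 to 93.77), with 51 hosts of 1264, led by srh-271 at 60.6 and srd-4 at 44.82. C-type lectin genes had 19.06 (interval 3.93 to 55.69), from 3 members, led by clec-50 and clec-1, and F-box genes 22.37 (interval 6.094 to 57.27), with fbxa-24 and fbxa-155 at the top. The replicates alone gave 44.46 and 63.52 for lectins and 11.18 and 27.96 for F-box genes, all below the 147.7 and 162.8 of all genes in those lists. Vitellogenin genes held none in 26.18 kb (interval 0 to 140.9 per Mb). The median distance of coding bases from an IDR region was over 20000 bp in each of these 4 families. The other 3 groups were detoxification enzymes, with 77.28 (interval 42.25 to 129.7) and gst-29 and dhs-23 at the top, ABC transporters, with 82.31 (interval 42.53 to 143.8), led by pmp-5 and mrp-1, and apical matrix genes, with 76.63 (interval 36.75 to 140.9), led by wrt-2 and grl-10. Replicate 1 alone gave 110.4, 75.45 and 122.6 for these 3 groups and replicate 2 alone 77.28, 82.31 and 76.63. The first and last values of replicate 1 were thus closer to its 147.7 over all genes. No intervals were computed for the replicates' values. Core histone and major sperm protein genes held none either, but had only 0.353 and 0.3 kb outside promoter windows.

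**Figure D3:**
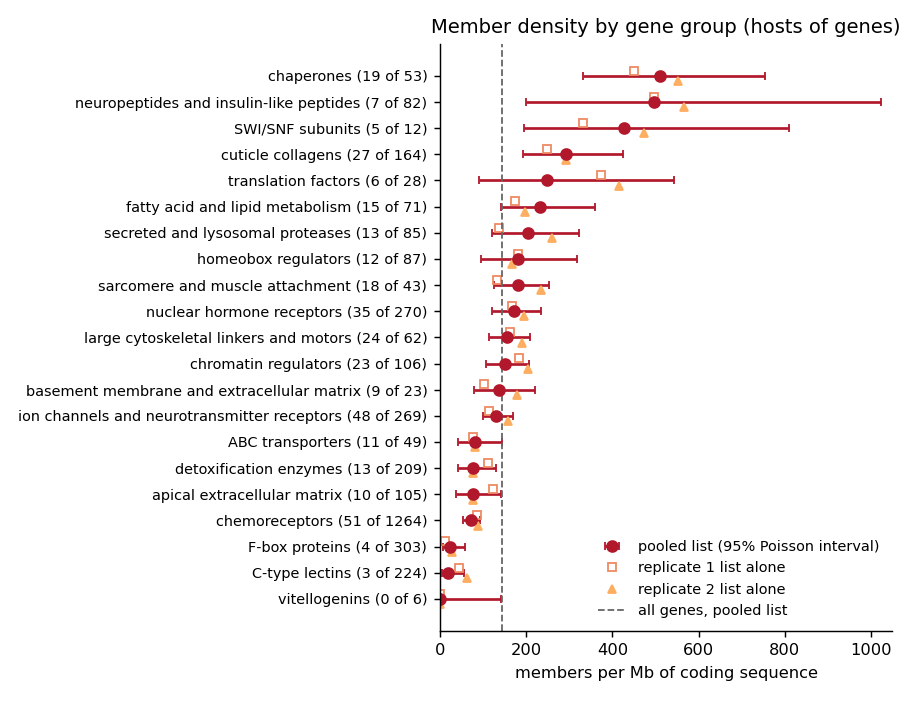
Members per Mb of coding sequence outside promoter windows by gene group, for groups with at least 10 kb (circles with 95% Poisson intervals; replicate lists alone as squares and triangles), with hosts of genes in parentheses and the value over all genes, 144.5, as a dashed line. Chaperones stood highest at 511.6 and the intervals of the 7 groups at the bottom, from ABC transporters down to vitellogenins, lay below the line.

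Genes of the SWI/SNF complex itself were hosts in 5 of 12 cases and had 426.7 members per Mb from 9 members (interval 195.1 to 810.1), beside 12.1% of all genes being hosts. Of the 12, 8 had a bound promoter, and their coding bases lay a median of 2555 bp from an IDR region. The part of this nearness in their density was not tested. swsn-7, the tagged gene, held 1 at 38.7 pooled and 27.44 in replicate 1, with none in replicate 2's list. let-526, which encodes the large ARID subunit of the BAF class, held 4 at 15.38 to 34.84, all in replicate 2's list and 1 also in replicate 1's. swsn-4, the ATPase, held 1 at 26.59 pooled, 11.43 in replicate 1 and 13.1 in replicate 2. dpff-1 held 1 at 23.12, in replicate 1's list only, and the PBAF gene pbrm-1 held 2 at 21.58 and 16.1, each in 1 list. swsn-1, swsn-3, swsn-6, swsn-9, phf-10, ham-3 and swsn-2.2 held none. unc-119, mutated in this strain, held none in 166 bp of eligible coding sequence.

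The surroundings of swsn-7 held a cluster of members. Within 20000 bp of the gene on chromosome II there were 8, from 8014019 to 8044521, and the gene itself runs from 8022632 to 8027763 in ce11. The strongest were in zyg-11, at 58.51 pooled, 36.06 in replicate 1 and 35.15 in replicate 2, and in the F-box gene DH11.2, at 57.7, 40.08 and 31.97. zyg-11 held another at 34.2, 24.09 and 19.19, and the histone deacetylase gene hda-2 one at 34.5, 22.92 and 15.41. On the other side lay sap-49, a splicing factor gene, at 39.83, 21.86 and 19.85, T05H10.1 at 29.75, 14.14 and 16.7, and algn-6 at 22.16 and 11.26 with none in replicate 2. All 8 exceeded the median member of 20.45 and all 8 were in replicate 1's list.

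Their density was 555.4 members per Mb of coding sequence, against a median of 113.9 over windows of the same flanks around the 15860 genes with at least 5000 bp of coding sequence in the window, of which 2.01% were as dense. Of all 19973 protein-coding genes 18 had 8 or more members within their window, neighbours included. Density was 587.8 per Mb within 10000 bp of swsn-7, from 6 members with a median signal value of 39.26. In further steps out to 20000, 40000, 80000 and 160000 bp it was 476.4, 277.4, 318.3 and 260.6, against 144.5 over all coding sequence. Weaker candidates of all classes numbered 477.5, 250, 450, 337.5 and 387.5 per Mb over the same steps, against 220.9 over the genome. The stretch was thus dense out to 160000 bp. Replicate 1's own list gave 9 members within 20000 bp and replicate 2's gave 7. Members were 8 of the 17 weaker candidates there, against 10.8% of all weaker candidates. The median signal value of the 17 was 33.06. Coding sequence outside promoter windows made up 10.21 of the 25.13 kb within 10000 bp. It made up 4.198 of the 20 kb from 10000 to 20000 bp, against 16.5% of the genome. The 8 members lay 560 to 4662 bp from an IDR region, and 48.0% of all members lay within 5000 bp of one. Coding bases of the genes that reach into the window lay a median of 2886 bp from an IDR region, against 9476 bp for all coding sequence. The part of this nearness in the cluster was not tested. The labels give the transgene as an insertion targeting swsn-7, and the transgene's part in this cluster was not tested either. Of the 12 genes with eligible coding sequence that reach into the window 8 were hosts, beside 12.1% of all genes with such sequence. This counts pgp-11, whose member lay outside the window. Around unc-119 the same window held no member and 3 weaker candidates.

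**Figure D4:**
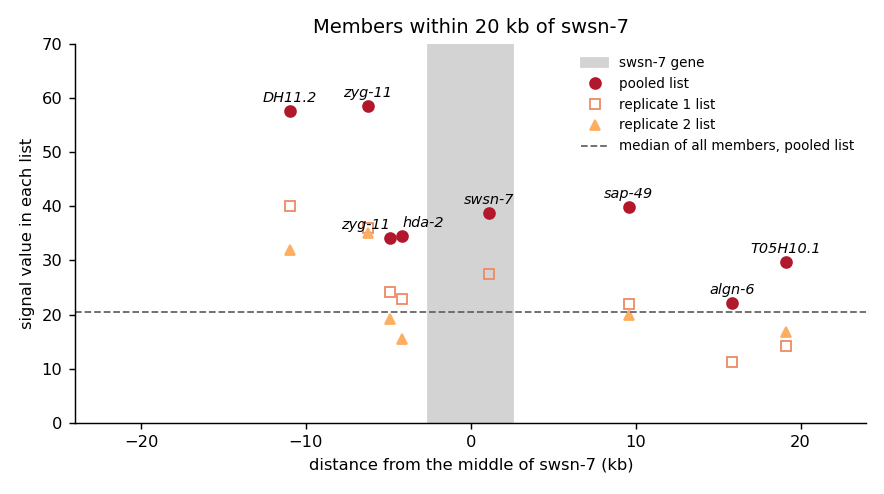
Signal value in the pooled list (circles), replicate 1 (squares) and replicate 2 (triangles) of the 8 members within 20 kb of swsn-7 (grey band), by distance of the summit from the middle of the gene in kb, with host names and the median of all members, 20.45, as a dashed line. All 8 pooled values lay above the line and the highest were 58.51 and 57.7.

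Within genes, members were densest at the 3′ end of the coding sequence. Along the longest coding sequence of each host, the last 10% held 401 members or 222.9 per Mb. The least dense stretch, from 40% to 50%, had 109.7 per Mb. The first 10% held 68 members or 185.3 per Mb, without an interval or replicate values. It took only 2.23% of sampled coding bases, since promoter windows remove the sequence next to gene starts. These last 10% took 16.8% of members (interval 15.3 to 18.3), against 10.9% of coding bases outside promoter windows sampled every 500 bp. Replicate 1's own members gave 15.3% and replicate 2's 17.3%. They took 22.4% of the 134 members at 40 and above (interval 15.6 to 30.4) and, among the strongest 20 members, 6 of the 18 with a position in that transcript. The gene's annotated end was within 500 bp of 24.5% of members and of 17.6% of sampled bases. A 5′ end of a gene lay 1000 to 2000 bp downstream of 20.3% of members and of 20.7% of sampled bases.

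Summits of all members lay slightly nearer exon edges than coding sequence at large, and those at a signal value of 40 and above nearer still. The median exon was 248 bp long and the summit a median of 54 bp from its edge, against 282 bp and 62 bp for sampled coding bases. The summit was within 100 bp of an exon edge in 69.9% of members, 66.4% of sampled bases and 82.1% of members at 40 and above. The 200 bp around the summit were all coding in 30.3% of members, against 33.8% of sampled bases. They were all coding in 17.9% of members at 40 and above (interval 11.8 to 25.5). Exons of 1000 bp and more held 7.06% of members and 9.54% of sampled bases.

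GC content separated members from the rest of coding sequence mainly at its upper end. The median over 200 bp was 41% at member summits and 40% at sampled coding bases, and 37% at other weaker candidates and 44% at IDR regions. Members numbered 450.2 per Mb where GC content was 55% and above and 277.4 per Mb from 50% to 55%, against 117.2 from 35% to 40%. Replicate 1's own members gave 354.2, 256.3 and 126.7 in these bins and replicate 2's own gave 446.5, 289.8 and 138.9. The pattern was present in genes with a bound promoter, with 440.6 per Mb at 50% and above and 190.4 under 40%, and in other genes, with 276.6 and 116.2. More than 5000 bp from an IDR region the density was 268.3 per Mb at 50% and above and 98.64 below. The part of GC content in the recovery or sequencing of fragments was not tested.

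**Figure D5:**
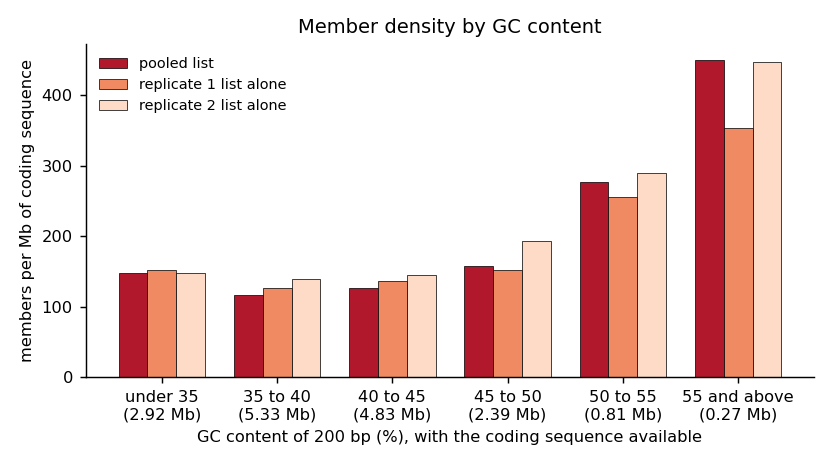
Members per Mb of coding sequence outside promoter windows (y axis) by GC content of 200 bp (x axis, with the coding sequence available), for the pooled list and for each replicate list alone. Density was lowest from 35% to 40%, at 117.2, and highest at 55% and above, at 450.2, in the pooled list.

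The GC content of members was locally raised. In the 50 bp steps next to the summit it averaged 43.1% and 43.6% at members, against 41.3% and 41.4% at sampled coding bases. Between 350 and 400 bp away it was 36.4% and 36.5% at members and 36.9% at sampled bases on both sides. Counting coding bases alone, the median was 44.8% around members, 44.4% and 44.8% for the replicates' own members, and 42.5% around sampled bases.

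Repeated sequence was rare under the members. The 50 bases centred on the summit occurred elsewhere in the genome for 5 members (0.209%, interval 0.0679 to 0.487), against 3.23% of sampled coding bases and 0.8505% of other weaker candidates. These were in fbxa-24, idpp-1, fust-1, cnt-2 and dig-1, each with 1 further exact copy, and fbxa-24 had the highest value among them at 28.6. The authors' treatment of reads that map to several places is not given.

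The letters GAGAGA, searched on both strands, lay in the 200 bp around 11.04% of member summits and around 9.87% of sampled coding bases. The same letters were around 20.7% of other weaker candidates and 45.8% of IDR regions. Over the chromosomes the density ran from 125.6 members per Mb on V to 172.9 on III, with 153.2 on X. Other weaker candidates were densest on X, with 305.6 per Mb. The middle 50% of chromosomes had 154.7 members per Mb and the outer 25% at each end 130.1, against 300.4 and 175.6 for the other weaker candidates.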

How the data were processed

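Per the labels, chromatin of 2 biological replicates was sonicated and precipitated with an antibody against GFP. Per the deposited readme files, the authors mapped the reads and made candidate lists for each replicate and for the pool, each of 30000 entries, and an IDR-thresholded list. No source used here gives the aligner, peak caller or filters. The authors' signal value served to describe and rank entries within 1 list. The deposited −log10 q-values were used for description only. Lists in ce11 were used and those in ce10 were not. The labels call the replicates biological and state nothing else about separate cultures.

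Entries that shared 1 bp or more became 1 region with the summit and signal of the strongest entry. Gene models were Ensembl release 115 and the genome sequence was RefSeq's WBcel235, whose product names are quoted as annotations. A host gene is one whose coding exon holds the summit. Gene ZK112.5 has no symbol in the annotation and is named by its transcript. Densities divide by coding bases outside promoter windows, which were also sampled every 500 bp for comparison. Repeats were exact 50-base copies on both strands. No p-value was computed: there is 1 group, and the members were chosen on measured values. Named genes were the hosts of the 20 strongest members, the 10 hosts with most members (ties by summed signal), up to 2 hosts by signal of each of 25 gene groups, and swsn-7, unc-119 and SWI/SNF subunits. Members, groups and lists were chosen with earlier results of these data known. Scripts ran in Python 3.11.15 with numpy 2.4.6, pandas 2.3.3, scipy 1.17.1 and matplotlib 3.10.9, and were tested on simulated regions.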

Additional observations from a re-analysis of the deposited data

How the results depend on the processing

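No paired analysis was possible because there is only 1 group. Of 56 alternative values, 34 stayed within the spread between replicates, within the interval, or within 1.5 times for counts, and 22 moved further. The spread is the standard deviation of the 2 values obtained without 1 replicate, and these values are themselves among the 56. For the median signal value it came from the replicate lists, whose values cannot be compared with those of the pooled list. With the strongest 15000 pooled entries there were 612 members in 576 host genes, 6.20% of weaker candidates, with 38.9% of hosts having a bound promoter (14.7% of other genes) and a median GC content of 41.5%. With promoter windows of 2000 bp upstream, members were 8.61% of weaker candidates and 33.7% of hosts had a bound promoter, against 17.3% of other genes. With 300 bp on each side these were 13.0%, 17.1% and 9.07%, and the median GC content was 40.5%. Windows of 100 and 400 bp gave a median GC content of 43% and 39%, against 41% and 38.8% of sampled coding bases. Without 1 replicate, the number of members was 2445 to 2695, that of host genes 2102 to 2242, the share of weaker candidates 10.9% to 11.8%, that of hosts with a bound promoter 27.5% to 30.5% and the median GC content 40.5% to 41%. The share in both replicate lists depended most on the definition. It was 30.6% with 50% of the member covered, 21.5% with summits within 100 bp, 9.37% with the strongest 15000 entries of each replicate, and 82.7% for members on the strongest 15000 pooled entries. Read depth is unknown, so how depth limits presence in a list could not be judged.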

Other observations

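The 14 IDR regions that lay in coding exons were not members but show what lies above the threshold. The strongest was in pks-1, which encodes a polyketide synthase, with 962.1 in the pooled list, 438.8 in replicate 1 and 523.8 in replicate 2, followed by mix-1, which encodes a condensin subunit, with 474.3, 227.3 and 241.8. The third, in glt-6, had 162.8, and the weakest, in gpcp-1, had 93.32. All 14 were in both replicate lists. The genes named here were chosen after their values were seen.

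Other letters, searched on both strands of the 200 bp windows, were about as common at members as at sampled coding bases, except CACGTG. It was somewhat more common at members. No intervals were computed for these shares. TGANTCA was found at 6.69% of members and 7.04% of sampled bases, CACGTG at 5.69% and 4.61%, GATAAG at 8.82% and 8.40%, and GCGGGAA at 1.25% and 1.37%. Among IDR regions these 4 were at 4.48%, 7.45%, 5.83% and 4.28%. Of the members, 21.9% had another member within 2000 bp.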
